A study of Mus musculus with 6 samples.

Results

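The genes described here encode the nuclear subunits of the mitochondrial respiratory chain and the ATP synthase, with factors that assemble them. Their transcripts were read in thymocyte RNA on 6 Affymetrix mouse arrays, 3 labelled SCLtg LMO1tg and 3 labelled control. A gene was a member when its symbol started with Nduf, Uqcr, Atp5 or Cox and a digit, or was *Sdha*, *Sdhb*, *Sdhc* or *Sdhd*, and when a probe set named that gene alone. The rule used names only and took 90 of the 12394 genes with such a probe set. They are 33 subunits of complex I, 4 of complex II, 8 of complex III, 16 of complex IV, 17 of complex V and 12 assembly factors. All 90 genes matched the RefSeq annotation by gene number. The subunits encoded by mitochondrial DNA had no probe set with a gene name here (0 genes), and *Ndufa4*, despite its name, was counted with complex IV, where its protein is found.

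The respiratory chain sits in the inner mitochondrial membrane. Complex I takes electrons from NADH and complex II from succinate, both pass them to coenzyme Q, complex III hands them on to cytochrome c, and complex IV gives them to oxygen. Complexes I, III and IV pump protons, and complex V, the ATP synthase, uses the return of these protons to make ATP. Immature thymocytes that divide rapidly are known to draw on both glycolysis and respiration, and most subunits of the chain are expressed in every cell that holds mitochondria.

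All thymocytes came from untreated 3-week-old C57BL6 mice that lacked CD3e (CD3e-/-), a signalling chain of the T-cell receptor complex without which development stops at the CD4- CD8- stage. The mice of the SCLtg LMO1tg group also carried *SCL* (*Tal1*) under the Sil promoter and *LMO1* under the Lck promoter, which is active in thymocytes. The controls carried the CD3e-/- genotype alone. The study asked with these arrays which genes the pair of oncogenes alters in pre-leukemic thymocytes. Whether each array held RNA of its own mouse is not stated, and p-values describe the variation among these 6 samples only.

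*Lmo1* went against the labels. It read 5.11, 5.07 and 4.86 on the log2 scale in the arrays labelled SCLtg LMO1tg and 6.64, 6.84 and 6.77 in those labelled control, a difference of −1.74 (limma adjusted p = 8.3e-04). The study lists *Cpa3* and *Lyl1* as raised by the transgenes. In the arrays labelled SCLtg LMO1tg they were lower, with differences of −2.53 and −1.22 (limma adjusted p = 7.6e-05 and 0.032). The directions of *Lmo1*, *Cpa3* and *Lyl1* here are therefore opposite to those of the study. *Tal1* went with the labels, at 4.55 to 4.71 against 4.27 to 4.44, but did not pass the filter on low values. Groups are called by their labels throughout, every difference is the arrays labelled SCLtg LMO1tg minus those labelled control on the log2 scale of RMA, and each direction would turn if the labels had been exchanged.

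The arrays also differed in ways that the labels do not name. The mean of 18 bacterial hybridization control probe sets was 8.91 to 9.49 in SCLtg LMO1tg replicates 2 and 3 and control replicate 1, called the low set, and 10.40 to 10.62 in the other arrays, SCLtg LMO1tg replicate 1 with control replicates 2 and 3 (the high set). The 3′ minus 5′ values of *Actb* and *Gapdh* were lowest in control replicate 2, at 1.48 and 2.38 against 2.26 to 2.86 and 3.01 to 3.51 in the other arrays. *Xist*, expressed from the inactive X chromosome of females, stood at 6.15 in that array and at 10.08 to 11.16 in the others. The Y-linked gene *Eif2s3y* stood at 5.74 in that array and at 5.43 and 6.23 in SCLtg LMO1tg replicates 1 and 2, which also had high *Xist*, and at 2.74 to 3.15 in the other 3 arrays. The arrays of a group were thus not all repeats of 1 RNA, and how much of their spread is technical is not known. *Cd3e* itself read 8.58 ± 0.06 against 8.52 ± 0.18 (SD, n = 3 each); where its probes lie relative to the deleted part is not known here, so this checks nothing about the genotype.

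Of the 90 members, 89 passed the filter and were tested among 8693 genes. The other was *Cox7a1*, the heart and skeletal muscle form of a complex IV subunit, at 3.36, 3.34 and 3.34 against 3.52, 3.36 and 3.55. None of the 89 reached an adjusted p under 0.05 in limma, where 0.161% of all genes tested did. By the unadjusted p, 12 members were higher and 1 was lower at p under 0.05, which is 13.5% and 1.12% of the members beside 6.3% and 3.14% of all genes. Rank products placed 0 members under a percentage of false positives of 0.1, beside 1% of all genes, and the lowest member there was *Ndufc1* at 0.27.

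The members nevertheless lay mostly on one side. The mean was higher in the arrays labelled SCLtg LMO1tg for 81 of 89 members, or 91.0%, beside 48.7% of all genes tested. Their median difference was 0.23, a fold of 1.17, with a range from −0.44 to 0.71, while the median over all genes was −0.01. All 3 arrays labelled SCLtg LMO1tg lay above all 3 labelled control for 20 members (22.5%, beside 7.33% of all genes), and the reverse held for 1 (1.12%, beside 6.37%). The members share arrays and were not tested as a list. Over all genes the median went from −0.04 without a filter to 0.05 with the filter at the 60th percentile. The share higher without overlap went from 5.56% to 9.08%. With that stricter filter the members had a median of 0.24, with 77 of 82 above 0. Members had higher levels than all genes, with means of 8.61 and 7.06 in SCLtg LMO1tg replicate 2. Shares of all genes are not matched for level throughout, and the part of level was not tested. The standard error of a member ran from 0.13 to 0.28, with a median of 0.18, so that a typical difference was little larger than its error.

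The arrays did not contribute equally. Taken as deviations from each gene's mean over the 6 arrays, the median member stood at 0.15, 0.07 and 0.08 in SCLtg LMO1tg replicates 1, 2 and 3 and at 0.00, −0.29 and −0.02 in control replicates 1, 2 and 3. The highest value fell in an array labelled SCLtg LMO1tg for 67 members and the lowest in an array labelled control for 78. Control replicate 2 was the lowest of the 6 arrays for 52 members, or 58.4%, beside 19.4% of all genes. Without that array the median difference of the members was 0.13, with 71 of 89 above 0. Without it 20 members (22.5%) were higher without overlap, beside 9.78% of all genes in the comparison of 3 against 2 arrays. They were the same 20 as with all arrays. Leaving out an array cannot make separate groups overlap, so this does not measure how far they depended on it.

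**Figure D1:**
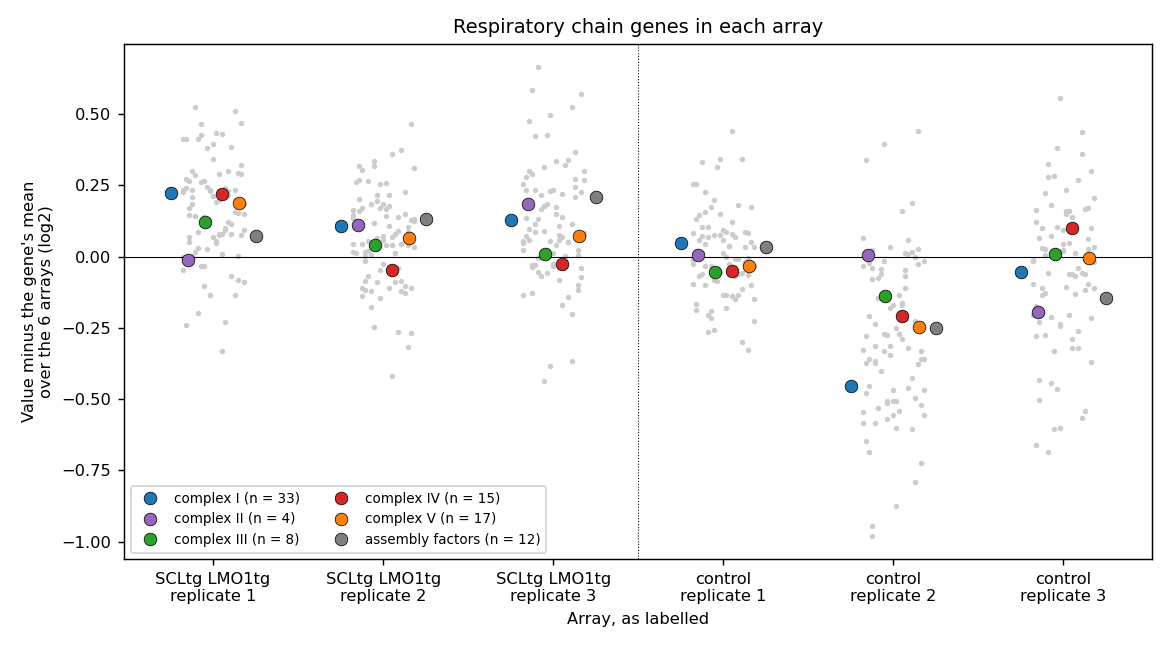
Each grey point is 1 of the 89 members in 1 array, as its RMA value minus the gene's mean over the 6 arrays (log2), and each coloured circle is the median of a complex or of the assembly factors. Complex I lies lowest in control replicate 2, at a median of −0.46, while the arrays labelled SCLtg LMO1tg hold medians between −0.05 and 0.22.

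Complex I had the largest median difference of the 5 complexes in all 6 arrays, at 0.30. Of its 33 subunits, 32 were above 0 and 7 were higher without overlap, beside 7.33% of all genes. Without control replicate 2 its median was 0.13, below those of complex II at 0.17 and complex V at 0.16. *Ndufc1*, a small accessory subunit of the membrane arm, read 8.72, 8.84 and 9.12 against 8.61, 7.59 and 8.34. Its lowest array labelled SCLtg LMO1tg lay just above the highest control, and the difference of 0.71 (SE 0.25, adjusted p = 0.41) was the largest of all members. *Ndufb6*, another accessory subunit of the membrane arm, read 8.40, 8.56 and 8.52 against 8.10, 7.78 and 8.14, a difference of 0.49 (SE 0.15, adjusted p = 0.36). Here the 3 arrays labelled SCLtg LMO1tg stood close together, 0.26 above the highest control at the nearest.

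*Ndufb2*, also of the membrane arm, read 8.47, 8.11 and 8.17 against 7.94, 7.17 and 7.90, with a difference of 0.58 (SE 0.22, adjusted p = 0.45). Control replicate 2 was its lowest array, and without it the difference was 0.33. *Ndufa5* had a difference of 0.51 (SE 0.28, adjusted p = 0.59) with overlapping groups, at 7.24, 7.11 and 7.23 against 7.27, 5.96 and 6.83. *Ndufb5* differed by 0.50 (SE 0.19), *Ndufb8* by 0.45 (SE 0.21) and *Ndufab1*, the acyl carrier protein of mitochondria, by 0.45 (SE 0.23), each with overlapping groups and adjusted p values from 0.46 to 0.57. Control replicate 2 was the lowest array for 24 of the 33 subunits.

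The catalytic core of complex I, which holds the flavin and the iron-sulfur clusters, had 6 subunits among the members, all above 0 with a median of 0.27, beside 26 of 27 accessory subunits with a median of 0.31. *Ndufs1*, the largest iron-sulfur subunit, read 7.15, 7.61 and 8.01 against 7.45, 7.20 and 6.66, a difference of 0.49 (SE 0.25, adjusted p = 0.57). Both groups spread over more than the difference between them. *Ndufv1*, which binds NADH and the flavin, read 8.68, 8.89 and 8.78 against 8.63, 8.03 and 8.78, a difference of 0.30 (SE 0.20, adjusted p = 0.63). *Ndufv3*, the remaining accessory subunit, was the only member of the complex below 0, at −0.11 (SE 0.22, adjusted p = 0.86).

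Complex II, succinate dehydrogenase, also serves the citric acid cycle and holds only 4 subunits, with a median difference of 0.16. *Sdha*, the flavoprotein that oxidises succinate, read 9.42, 9.73 and 9.97 against 9.72, 9.54 and 9.52, a difference of 0.11 (SE 0.17, adjusted p = 0.81) with overlapping groups, and its other probe set differed by 0.42. *Sdhb*, the iron-sulfur subunit, read 8.72, 8.74 and 8.65 against 8.54, 8.61 and 8.34, without overlap and with a difference of 0.21 (SE 0.14, adjusted p = 0.63). The membrane anchors *Sdhc* and *Sdhd* differed by −0.22 (SE 0.19) and 0.30 (SE 0.20). *Sdhc* depended on the probe set. Its brighter probe set, which can also read other transcripts, gave 8.77, 8.57 and 8.29 against 8.54, 8.67 and 9.09, whereas the other gave 6.52, 6.60 and 6.51 against 6.21, 5.99 and 5.99, a difference of 0.48 without overlap. Control replicate 2 was the lowest array for 0 of the 4 subunits.

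In complex III, 7 of 8 subunits were above 0, with a median of 0.11. Of these, 3, *Uqcrfs1*, *Uqcrc1* and *Uqcrb*, did not overlap, beside 7.33% of all genes. *Uqcrfs1*, the Rieske iron-sulfur protein, read 8.87, 9.02 and 9.12 against 8.82, 8.46 and 8.63, a difference of 0.37 (SE 0.15, adjusted p = 0.50). *Uqcrc2*, a core protein, read 10.12, 9.97 and 10.08 against 9.98, 9.37 and 9.57, a difference of 0.42 (SE 0.18, adjusted p = 0.51), and *Uqcr11* differed by 0.35 (SE 0.20, adjusted p = 0.60). Control replicate 1 lay just below the other label in *Uqcrfs1* and among it in *Uqcrc2*. *Uqcrc1*, the other core protein, had groups that did not overlap although they hardly differed, at 8.64, 8.66 and 8.69 against 8.63, 8.61 and 8.63, a difference of 0.04 (SE 0.13, adjusted p = 0.92). *Uqcrb*, long known as the ubiquinone-binding protein, differed by 0.14 (SE 0.14, adjusted p = 0.71) at its brighter probe set, with values of 12.37 to 12.43 against 12.11 to 12.37 and a gap between the groups of only 0.0038. Its other probe set read 7.39, 7.63 and 8.01 against 7.27, 6.58 and 6.56, a difference of 0.87.

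Complex IV, cytochrome c oxidase, was divided by the kind of subunit. Several of its nuclear subunits exist as a general form and as forms known from heart and skeletal muscle, lung or testis. The 10 general subunits were all above 0, with a median of 0.29 and 4 higher without overlap (7.33% of all genes). The 5 tissue forms tested were all below 0, with a median of −0.16 and 1 lower without overlap (6.37% of all genes). Mean levels per array were 9.34 to 9.88 for the general and 5.78 to 6.35 for the tissue forms. Kind and level therefore went together in most genes and can hardly be told apart here. The general *Cox7c* read at the level of the tissue forms, at 5.18 to 5.95, with a difference of 0.11 (SE 0.24). The part of level was not tested. Neither kind kept its direction throughout the hybridization sets. Of the tissue forms, *Cox8c* differed by 0.14 within the low set, and *Cox4i2* and *Cox8b* by 0.22 and 0.06 within the high set. Of the general subunits, *Cox7c* differed by −0.19 and −0.03 within the low and the high set. *Cox5a* and *Cox6b1* differed by −0.08 and −0.02 within the low set, and *Cox5b* by −0.01 within the high set. Over the 15 subunits the median was 0.11, and without control replicate 2 it was −0.0022.

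*Ndufa4* read 8.65, 8.82 and 8.98 against 8.52, 8.05 and 8.0, or 8.82 ± 0.17 against 8.19 ± 0.28 (SD, n = 3 each). Its difference of 0.63, a fold of 1.55 (SE 0.18), had the lowest adjusted p of all members, 0.29. *Cox7a2*, the general partner of *Cox7a1*, read 10.49, 10.20 and 10.23 against 9.92, 9.55 and 9.95, a difference of 0.50 (SE 0.16, adjusted p = 0.39), and its other probe set gave 0.49. In both genes all arrays labelled SCLtg LMO1tg were the higher ones. *Cox6a1* read 11.11, 10.69 and 10.90 against 10.65, 10.28 and 10.47, a difference of 0.43 (SE 0.17, adjusted p = 0.46).

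*Cox4i1*, the general form of the subunit through which ATP slows the enzyme, had closely spaced values within each label, at 9.55, 9.54 and 9.56 against 9.31, 9.17 and 9.15. The difference was 0.34 (SE 0.13, adjusted p = 0.46), and was 0.31 to 0.39 with any 1 array left out. *Cox5a* differed by 0.29 (SE 0.18), *Cox6b1* by 0.15 (SE 0.24) and *Cox8a* by 0.02 (SE 0.14), all with overlap. *Cox8a* had no stable direction, since its other probe sets differed by −0.13 and −0.03.

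Of the tissue forms, *Cox6b2*, known from testis, was the member with the most negative difference, −0.44 (SE 0.17, adjusted p = 0.47), at 5.06, 5.05 and 4.81 against 5.27, 5.23 and 5.75. *Cox6a2*, known from heart and skeletal muscle, differed by −0.28 (SE 0.23), *Cox8c*, known from testis, by −0.16 (SE 0.19), *Cox8b*, known from heart and skeletal muscle, by −0.12 (SE 0.18) and *Cox4i2*, known from lung, by −0.02 (SE 0.15), with adjusted p values from 0.68 to 0.96 and overlapping groups. *Cox4i2* turned to 0.04 after the arrays were quantile normalized once more. Values of *Cox4i2*, *Cox6b2* and *Cox8b* lay between 4.81 and 5.82, near the array medians of 5.57 to 5.70. Markers of muscle and brown fat that passed the filter, 3 of 9, were also below 0, with a median of −0.18 and mean levels of 5.47 to 5.95 against 5.67 to 5.99, and *Acta1*, *Myh4*, *Tnnt3*, *Mb*, *Ucp1* and *Adipoq* did not pass it. The part of such cells in the result was not tested.

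Complex V was above 0 in 17 of 17 subunits, with a median of 0.23 and 4 without overlap, beside 7.33% of all genes. *Atp5j*, of the peripheral stalk that holds the catalytic head still, read 9.49, 9.43 and 9.49 against 9.41, 9.08 and 8.66, a difference of 0.42 (SE 0.19, adjusted p = 0.53). The arrays labelled SCLtg LMO1tg were nearly equal and the controls spread widely. *Atp5pb*, another stalk subunit, had the largest difference of the complex, 0.56 (SE 0.27, adjusted p = 0.54), at 9.46, 9.90 and 10.05 against 9.87, 8.92 and 8.96. Control replicate 1 lay among the arrays labelled SCLtg LMO1tg there. *Atp5j2*, a membrane subunit, differed by 0.40 (SE 0.19, adjusted p = 0.55).

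The 4 peripheral stalk subunits had a median of 0.33, the 5 subunits of the catalytic head (F1) 0.25, the 3 genes of the rotating c ring 0.23 and the 5 other membrane subunits 0.10. *Atp5a1* and *Atp5b*, which form the catalytic sites, differed by 0.25 (SE 0.16) and 0.20 (SE 0.25), with adjusted p values of 0.62 and 0.77. *Atp5b* read 10.29, 10.79 and 10.81 against 10.55, 10.87 and 9.87, so that control replicate 2 was its highest array and control replicate 3 its lowest. *Atp5g1*, *Atp5g2* and *Atp5g3* encode precursors of 1 and the same mature subunit c. Their differences were 0.23, 0.19 and 0.23 (SE 0.16, 0.19 and 0.14). *Atp5g3* did not overlap, at 12.01, 11.99 and 11.96 against 11.79, 11.60 and 11.88, whereas *Atp5g1* and *Atp5g2* were highest in SCLtg LMO1tg replicate 1, at 7.81 and 9.32, with the 5 other arrays at 7.19 to 7.39 and 8.64 to 8.93.

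All 12 assembly factors were above 0, with a median of 0.23 and 1 higher without overlap, beside 7.33% of all genes. *Cox17*, which carries copper to complex IV, read 8.11, 8.50 and 8.26 against 8.21, 7.31 and 7.82, a difference of 0.51 (SE 0.22, adjusted p = 0.52). *Ndufaf1*, needed for the membrane arm of complex I, read 6.82, 7.21 and 7.45 against 6.90, 6.64 and 6.71, a difference of 0.41 (SE 0.18, adjusted p = 0.52). In each of these genes 1 array crossed into the other group. *Ndufaf5* read 6.41, 6.55 and 6.41 against 6.31, 6.20 and 6.13, without overlap and with a difference of 0.24 (SE 0.14, adjusted p = 0.59). *Cox7a2l*, known as a factor of supercomplexes of complexes III and IV, a role not examined in these mice, differed by 0.20 (SE 0.15, adjusted p = 0.66).

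**Figure D2:**
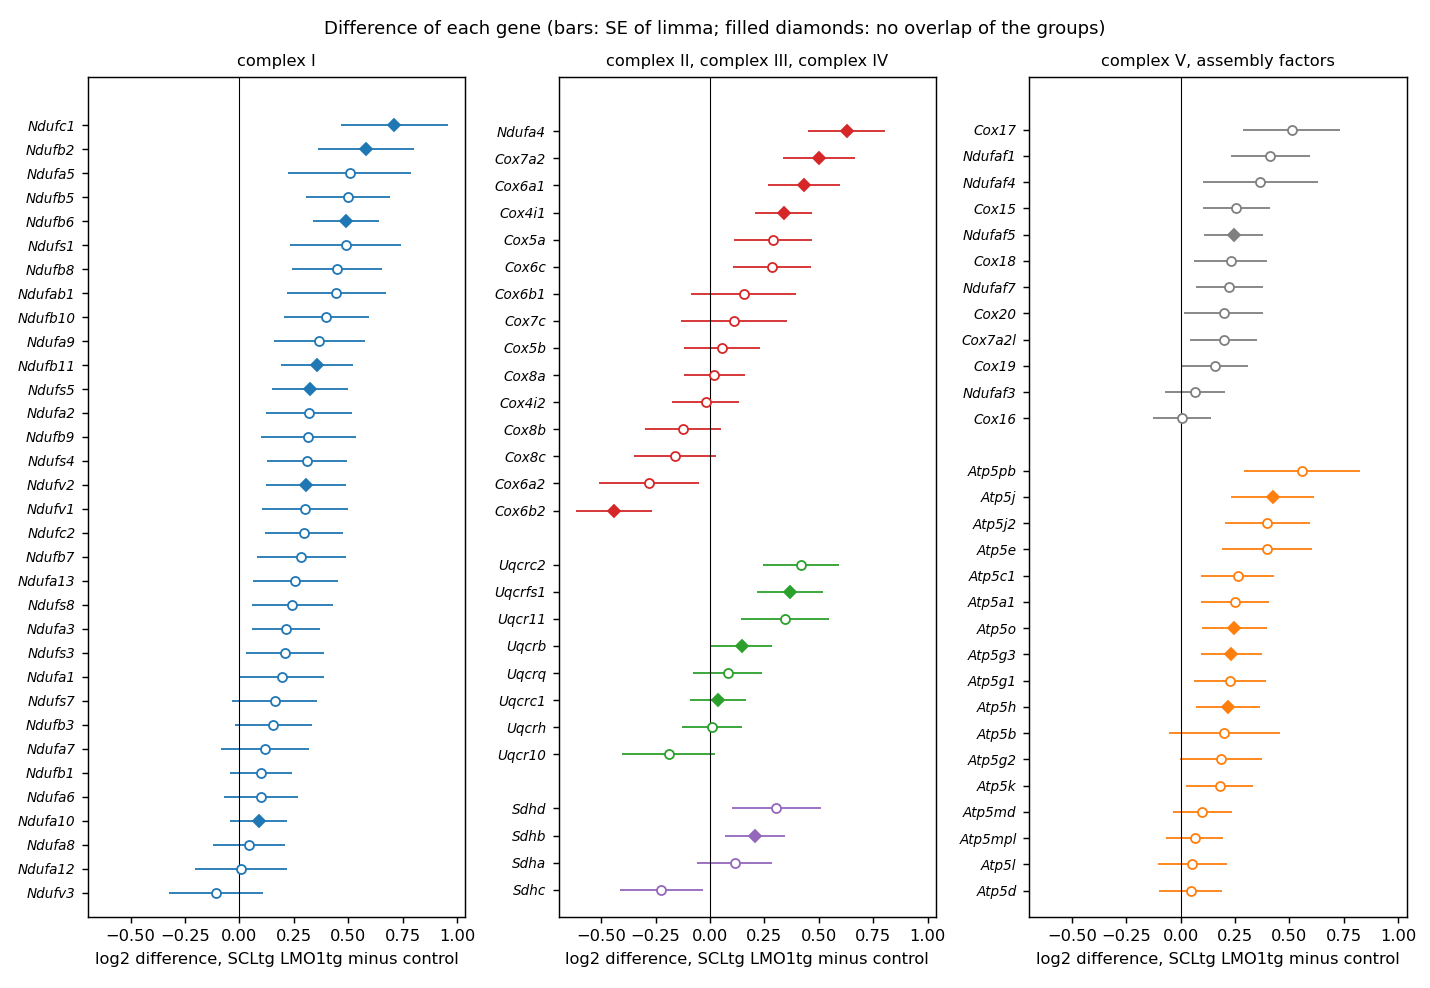
Each symbol is the log2 difference of 1 of the 89 members (arrays labelled SCLtg LMO1tg minus control) and each bar its standard error in limma, in 3 panels by complex; filled diamonds mark members whose groups of 3 arrays do not overlap. Of the members, 81 lie above 0, from *Ndufc1* at 0.71 down, and *Cox6b2* at −0.44 is the filled diamond below 0.

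**Figure D3:**
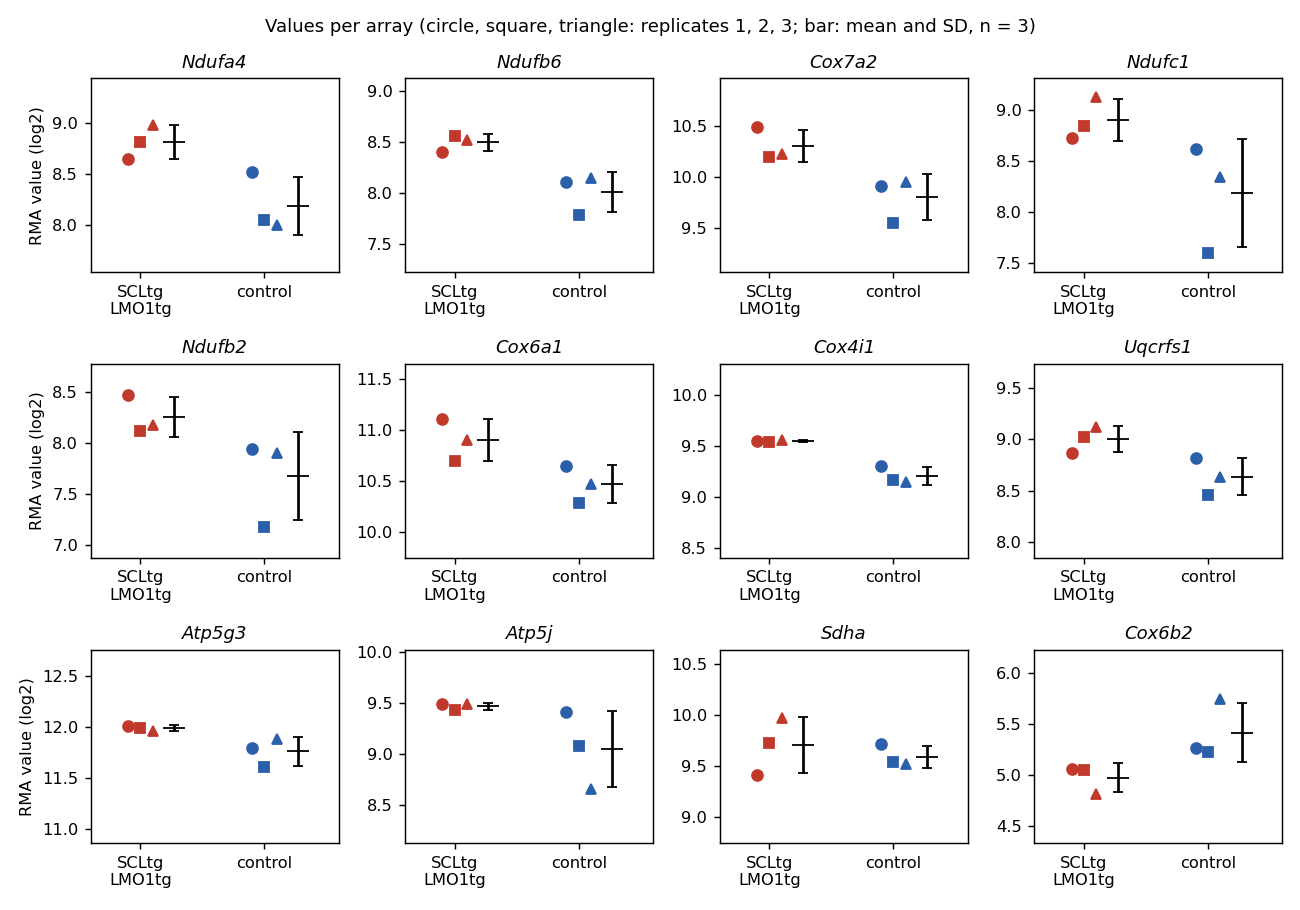
RMA values (log2) of 12 members in the 3 arrays labelled SCLtg LMO1tg (red) and the 3 labelled control (blue), with circles, squares and triangles for replicates 1, 2 and 3 and black bars for the mean and SD. The panels span the same number of log2 units, so the narrow spread of *Cox4i1* (SD 0.01 and 0.08) can be set beside that of *Ndufc1* (SD 0.21 and 0.53).

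The promoters of a few of these genes show which letters known from respiratory chain promoters they hold. RefSeq sequence of GRCm38.p6, from 250 bases before to 50 after the transcription start, was at hand for 74 of the 90 members. The stretches that follow run 5′ to 3′ on the strand of the gene, from 120 bases before to 30 after the start. They stand for the general complex IV genes *Ndufa4*, *Cox7a2* and *Cox6a1* and the complex I gene *Ndufb6*, which were among the lowest p values, for *Cox6b2*, the member lower without overlap, and for *Atp5g2*, with a site for NRF1. Capitals mark the motifs named after them.
Ndufa4, chr6:11907421-11907570, minus strand: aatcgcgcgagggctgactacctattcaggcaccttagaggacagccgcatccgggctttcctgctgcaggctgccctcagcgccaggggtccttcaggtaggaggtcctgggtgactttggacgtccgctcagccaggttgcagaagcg
Cox7a2, chr9:79759824-79759973, minus strand: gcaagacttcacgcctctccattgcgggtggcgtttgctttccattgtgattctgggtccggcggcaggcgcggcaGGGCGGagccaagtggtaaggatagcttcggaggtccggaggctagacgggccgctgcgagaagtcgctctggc
Cox6a1, chr5:115348929-115349078, minus strand: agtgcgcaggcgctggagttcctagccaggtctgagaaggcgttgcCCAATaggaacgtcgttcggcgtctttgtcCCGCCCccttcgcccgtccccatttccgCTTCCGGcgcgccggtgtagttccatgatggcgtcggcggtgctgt
Ndufb6, chr4:40279392-40279541, minus strand: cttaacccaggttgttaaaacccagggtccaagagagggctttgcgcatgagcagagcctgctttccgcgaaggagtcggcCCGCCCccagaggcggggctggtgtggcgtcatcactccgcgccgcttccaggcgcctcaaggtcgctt
Cox6b2, chr7:4753065-4753214, minus strand: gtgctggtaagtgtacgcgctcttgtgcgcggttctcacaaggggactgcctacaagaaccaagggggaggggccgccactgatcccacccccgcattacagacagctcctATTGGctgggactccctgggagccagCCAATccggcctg
Atp5g2, chr15:102671018-102671167, minus strand: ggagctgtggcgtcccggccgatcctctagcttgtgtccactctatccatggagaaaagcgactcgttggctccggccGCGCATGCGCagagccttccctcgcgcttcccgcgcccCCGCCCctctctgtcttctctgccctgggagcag

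The motifs searched on both strands were GCGCATGCGC for NRF1, CCGGAAG for ETS factors such as GABP, AAGATGGCG for YY1, GGGCGG for Sp1 and CCAAT for NF-Y. None of these letters overlapped in the stretches shown. NRF1 and GABP are known as activators of many respiratory chain genes. The NRF1 motif stood in the windows of 6 of 74 members, or 8.11%, beside 2.19% of the tested genes and 1.07% of all genes with a window. These were *Atp5g2*, *Atp5k*, *Cox6a1*, *Ndufaf4*, *Ndufaf5* and *Uqcrc1*, with differences of 0.19, 0.18, 0.43, 0.37, 0.24 and 0.04. The ETS motif stood in 28.4% of members, beside 19.9% of tested and 9.93% of all genes, and the YY1 motif in 8.11%, beside 3.56% and 1.64%. The Sp1 motif was found in 47.3% of members and 67.1% of tested genes, and CCAAT in 39.2% and 42.3%. A match is a description of the letters and says nothing of binding in these cells.

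The median was above 0 within both hybridization sets, and higher in the high set. Within the low set, SCLtg LMO1tg replicates 2 and 3 minus control replicate 1, the median member differed by 0.09 and 62 of 89 were above 0. Within the high set, SCLtg LMO1tg replicate 1 minus control replicates 2 and 3, the median was 0.31 and 79 were above 0. In both sets at once 56 members were above 0 and 4 below, where 30.4% of all genes were above 0 in both. *Ndufb6* differed by 0.44 and 0.45 in the low and the high set, *Ndufa4* by 0.39 and 0.62 and *Ndufaf1* by 0.43 and 0.15, whereas *Ndufa5* differed by −0.10 and 0.85. By complex, the low and high medians were 0.05 and 0.38 for complex I, 0.14 and 0.01 for II, 0.10 and 0.12 for III, 0.03 and 0.22 for IV, 0.10 and 0.30 for V and 0.11 and 0.28 for the assembly factors. With the set as a block the median of the members was 0.21, with 80 above 0. The part of the hybridization set and of RNA quality in the result was not tested.

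**Figure D4:**
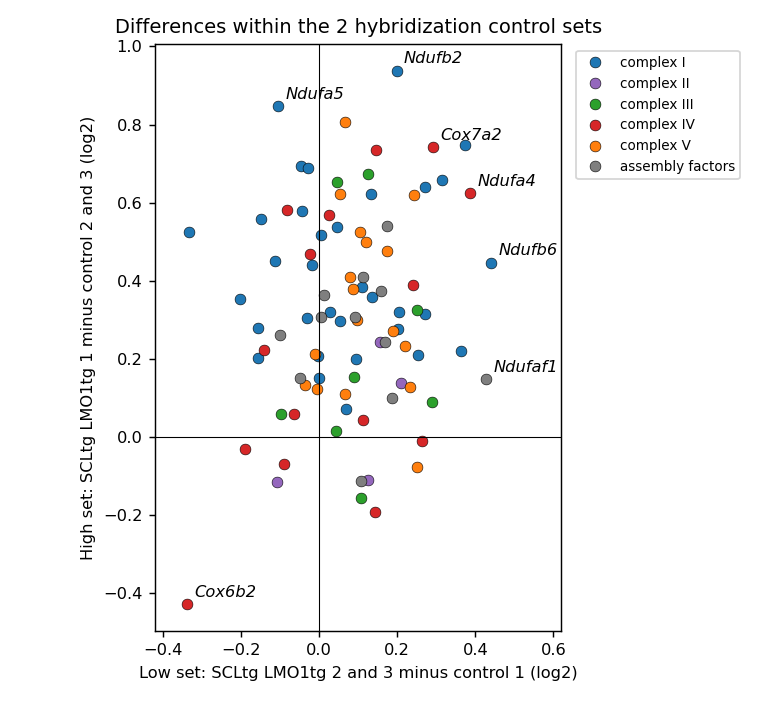
Each point is 1 of the 89 members, with its log2 difference within the low hybridization set on the x axis (2 arrays labelled SCLtg LMO1tg against 1 control) and within the high set on the y axis (1 against 2). Above 0 on both axes lie 56 members, below 0 on both 4, and *Cox6b2* lies farthest down on the left.

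Another quantile normalization of the arrays took the median of the members from 0.23 to 0.13. It left 8 members higher without overlap, or 8.99%, beside 6.17% of all genes, and all 8 (*Cox4i1*, *Cox6a1*, *Ndufa4*, *Ndufaf5*, *Ndufb6*, *Ndufc1*, *Ndufs5* and *Uqcrfs1*) had been among the 20. With array weights, which let limma count a variable array for less, 7 members passed an adjusted p under 0.05, or 7.87%, beside 4.79% of all genes passing upwards. They were *Ndufa4* (0.71, adjusted p = 0.023), *Ndufb6* (0.63, 0.027), *Ndufc1* (0.94, 0.029), *Cox17* (0.84, 0.032), *Atp5pb* (0.79, 0.041), *Cox7a2* (0.53, 0.049) and *Ndufb2* (0.69, 0.050).

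Probe sets of 1 gene mostly had 1 direction. Several probe sets passed the filter for 43 members, and all lay above 0 for 34, all below 0 for 1 (*Uqcr10*) and on both sides for 8, *Cox5b*, *Cox8a*, *Ndufa10*, *Ndufa7*, *Ndufb9*, *Ndufs8*, *Sdhc* and *Uqcrq*. Over the 64 further probe sets that passed, the median difference was 0.22 and 52 were above 0. Probe sets ending in x_at, which can read other transcripts, were used for 7 members, with a median of 0.06.

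Other mitochondrial genes were read from lists. Each of these lists held 0 genes past an adjusted p under 0.05. Carriers and porins had 7 of 7 genes above 0, with a median of 0.28. *Slc25a4* and *Slc25a5*, the exchangers of ADP and ATP, did not overlap, at 8.34, 8.46 and 8.41 against 7.94, 7.88 and 7.71 (0.56, SE 0.14, adjusted p = 0.21) and at 11.02, 10.98 and 11.09 against 10.75, 10.32 and 10.62 (0.47, SE 0.15, adjusted p = 0.39). The citric acid cycle and pyruvate dehydrogenase had 14 of 14 above 0 and a median of 0.23, from citrate synthase (*Cs*) at 0.01 to fumarase (*Fh1*) at 0.73 (SE 0.18, adjusted p = 0.21). Cytochrome c, electron entry and coenzyme Q genes had 12 of 16 above 0 with a median of 0.23. Cytochrome c itself, *Cycs*, read 9.23, 8.94 and 9.25 against 8.80, 8.83 and 8.47, a difference of 0.44 (SE 0.16, adjusted p = 0.44). *Atpif1*, the inhibitor of the ATP synthase, differed by 0.47 (SE 0.15, adjusted p = 0.38).

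Mitochondrial ribosomal proteins, which build the subunits encoded by mitochondrial DNA, were above 0 in 63 of 74 genes, with a median of 0.15. Of the 74, 14 were higher without overlap, beside 7.33% of all genes. Protein import had 17 of 20 above 0 and a median of 0.18, and biogenesis regulators and factors of mitochondrial DNA 11 of 17 and 0.14. *Tfam*, which packs mitochondrial DNA, differed by 0.42 (SE 0.23), *Gabpa* by 0.38 (SE 0.29), *Nrf1* by 0.19 (SE 0.15) and *Ppargc1b*, a coactivator of mitochondrial biogenesis, by −0.20 (SE 0.15), with adjusted p values from 0.59 to 0.67, and *Ppargc1a* did not pass the filter. Of the assembly factors outside the symbol rule, 14 of 25 were above 0, with a median of 0.01, where the 12 inside it had 0.23, and the difference between these lists was not tested.

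**Figure D5:**
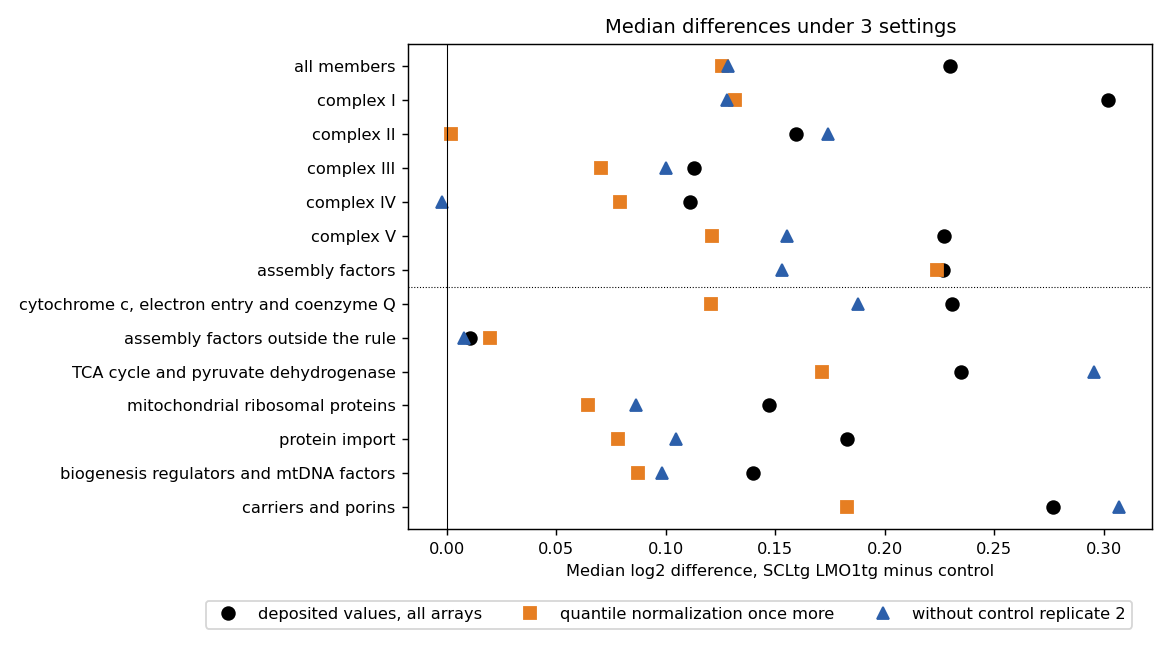
Median log2 difference of the members, of each complex and of the other mitochondrial lists, with the deposited values of all 6 arrays (black circles), after another quantile normalization (orange squares) and without control replicate 2 (blue triangles). The median of all members is 0.23, 0.13 and 0.13 in these 3 settings, and only complex IV without control replicate 2 falls below 0.

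Markers of dividing cells and of other cell types differed between the labels as well. Of 8 markers of cycling cells, 8 were above 0 and 6 were higher without overlap, beside 7.33% of all genes. Their median was 0.67, with mean levels of 9.04 to 9.34 against 8.29 to 8.71. Markers of neutrophils, which are not thymocytes, had a median of 0.88 over 13 genes, with mean levels of 6.51 to 7.17 against 5.65 to 6.29. Of these, 7 were higher without overlap, beside 7.33% of all genes. In all, 9 were above 0 and 4 below, *Cxcr2*, *Elane*, *Csf3r* and *Mmp8*, at −0.14 to −0.02. Erythroid markers had a median of 0.55 over 5 of 8 genes that passed the filter, with *Hba-a1*, *Epb42* and *Car1* below it, and mean levels of 6.75 to 7.67 against 6.48 to 6.64. Of the 5, 4 were above 0 and 1 below (*Klf1*, −0.03), and 1 was higher without overlap, beside 7.33% of all genes. Their median deviation was −0.08, −0.005 and 0.99 in SCLtg LMO1tg replicates 1, 2 and 3. Within the low and the high hybridization set the median was 0.43 and 0.02. Markers of thymocytes had a median of 0.15 over 9 genes, 8 above 0 and 1 below, with mean levels of 9.30 to 9.67 against 8.99 to 9.35. They ran from *Cd3g* at −0.18 to *Ptcra*, the pre-T-cell receptor chain, which alone passed in limma at 1.28 (SE 0.16, adjusted p = 0.013). The study describes *Ptcra* as inhibited by SCL, so its direction here was also opposite to the study's. Markers of macrophages and dendritic cells differed by a median of 0.12 (mean levels 6.82 to 7.20 against 6.74 to 6.92), of B cells by −0.51 (5.80 to 5.90 against 6.06 to 6.55) and of thymic stroma by −0.10 (6.64 to 7.02 against 6.68 to 6.81). Each of these lists held genes on both sides of 0. Above 0 were 4 of 7, 1 of 4 and 2 of 5 genes that passed the filter. The ranges were −0.04 to 0.74, −0.77 to 0.01 and −0.49 to 0.57. In whole thymocyte RNA, fewer cells of a type and less RNA per cell cannot be told apart, and the part of these cells and of division in the differences of the respiratory chain genes was not tested.

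X-linked members were read apart because *Xist* and *Eif2s3y* differed between arrays of both labels. *Ndufa1* and *Ndufb11*, both accessory subunits of complex I, differed by 0.20 (SE 0.20, adjusted p = 0.72) and 0.36 (SE 0.16, adjusted p = 0.53). *Ndufa1* read 10.85, 10.59 and 10.94 against 10.73, 10.20 and 10.86, and *Ndufb11* read 10.69, 10.35 and 10.42 against 10.25, 9.88 and 10.25. Control replicate 2, the array with little *Xist*, was the lowest for both, as it was for most members on other chromosomes.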

How the data were processed

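RNA of thymocytes was measured on 3 arrays labelled SCLtg LMO1tg and 3 labelled control. The authors deposited 1 log2 value per probe set and array, made with RMA in the affy package (versions not given in the sources used here); they also dropped probe sets that MAS5 called absent, a step that these values do not allow to be repeated. RMA sets the probe intensities of every array to 1 distribution before they are combined by probe set, and does not measure total RNA. The deposited values per probe set were not of 1 distribution, with array medians of 5.57 to 5.70. Precision is limited by having 3 arrays a group.

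The platform annotation names 1 gene for 20393 of 22690 probe sets, several for 691 and none for 1606. Where a gene had several probe sets, the 1 with the highest mean over the 6 arrays stood for it. Genes were kept when 3 or more of 6 arrays reached the 40th percentile of the array. The 8693 kept genes were fitted with limma 3.58.1 (R 4.3.3) and no covariate, with p-values adjusted over them by Benjamini-Hochberg and a threshold of 0.05. Rank products, the test of the study's methods, used 9 pairwise differences and 100 permutations. The scripts were tested on simulated data. Members, lists and tests were chosen with earlier results of these data known; lists were described by counts and medians, without a test.

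Named members were those with the largest differences, the lowest p in each complex, the catalytic and core subunits, tissue isoforms and their general partners, the copies of subunit c, X-linked members and those with probe sets of opposite sign and a difference above 0.5, of which there were 0. Further members were named after their values were seen, as ends of a range, as examples, in sets of 8 or fewer, or for a second probe set. Genes outside the rule were named for their role. Alternatives were other filters, normalizations, variance models, blocks, probe set choices, thresholds and left-out arrays. Residual correlations of arrays with the same replicate number were −0.64, 0.01 and −0.38, which does not pair the samples.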

Additional observations from a re-analysis of the deposited data

How the results depend on the processing

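Limma called 0 members in all settings but array weights (7). With a replicate block the median stayed at 0.23 with 0 members called, and the pairing changed no call. Arrays quantile normalized again gave 8 members higher without overlap. Complex II stood at 0.0021, the list of cytochrome c, electron entry and coenzyme Q genes at 0.12 and mitochondrial ribosomal proteins at 0.0643. *Cox4i2* stood at 0.0416, *Cox8a* at −0.16, *Sdha* at −0.0576 and *Uqcrc1* at −0.0989. Without a filter 2 members were lower without overlap (6.88% of all genes) and the cytochrome c, electron entry and coenzyme Q list stood at 0.17. At the 60th percentile 0 were lower (5.65% of all genes), with complex IV at 0.29. Centring gave the cytochrome c, electron entry and coenzyme Q list 0.28 and *Cox4i2* 0.0278, and the hybridization block *Cox4i2* 0.0406. Assembly factors outside the rule stood at 0.0629, 0.0584, 0.0495, 0.0387 and 0.0853 with the stricter filter, centring, array weights, the hybridization block and mean probe sets. *Cox8a* was −0.0334 with array weights and −0.048 with mean probe sets, where *Sdhc* was 0.13. With any 1 array left out, 20 to 41 members were higher and 1 to 4 lower without overlap, beside 9.4% to 19.9% and 7.94% to 20.7% of all genes. The 41 higher, with 4 lower, arose without control replicate 1, where these shares were 19.9% and 20.7%. Medians ran from 0.0651 to 0.20 for complex III and −0.0022 to 0.22 for complex IV. They ran from 0.16 to 0.27 for the cytochrome c, electron entry and coenzyme Q list. For outside assembly factors they were 0.0042 to 0.0566 and for carriers 0.19 to 0.48. *Atp5b* ran from −0.0801 to 0.42, *Atp5g2* from −0.0013 to 0.32, *Cox4i2* from −0.14 to 0.0421, *Cox6b1* from −0.089 to 0.39, *Cox8a* from −0.0499 to 0.0782, *Ndufa1* from −0.0042 to 0.33 and *Sdha* from −0.0202 to 0.26. Chosen after seeing the data, leaving out probe sets ending in s_at or x_at gave outside assembly factors 0.048, *Cox8a* −0.13 and *Sdhc* 0.48. Leaving out SCLtg LMO1tg 1 and control 2 together gave 30 members higher and 7 lower without overlap, beside 23.1% and 21.8% of all genes, and medians of 0.0969 for all members, 0.0332 for complex III, −0.016 for complex IV, 0.0926 for complex V and −0.00014 for outside assembly factors, with *Atp5g2* −0.0245, *Cox6b1* −0.24, *Cox8a* −0.016 and *Ndufa1* −0.033. The cause was not tested in any of these.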

Other observations

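Probe sets that name several genes were left out of the members, and 9 of them name a respiratory chain gene beside a pseudogene, a near copy or a neighbour. Of these, 5 had groups without overlap, all higher in the arrays labelled SCLtg LMO1tg, beside 7.33% of all genes tested. The probe set of *Ndufs5* and its pseudogene read 6.54, 6.65 and 6.55 against 6.37, 5.07 and 6.44, a difference of 0.62. The probe set of *Ndufab1* and its pseudogene read 8.34, 8.36 and 8.53 against 8.20, 7.43 and 7.76, a difference of 0.61. The probe set of *Ndufs6* and *Ndufs6b* read 9.45, 9.50 and 9.25 against 9.02, 8.97 and 8.85, a difference of 0.45 to which control replicate 2 added little. The 2 probe sets of *Ndufb4* and its copies differed by 0.45, with overlap, and by 0.50, without. The probe set of *Cox14* and an unnamed neighbour differed by 0.33 without overlap. Those shared by *Ndufa11* and its copy, by *Ndufb2* and *Adck2* and by *Ndufa13* and *Yjefn3* differed by 0.09, 0.06 and −0.21, with overlap. These probe sets cannot tell their genes apart and were not tested.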
